A study of Arabidopsis thaliana with 12 samples.

Results

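COR15A and COR15B are a pair of neighbouring Arabidopsis genes that are switched on when the plant is chilled. They were picked as the probe sets whose single annotated gene symbol is COR15A or COR15B, which gave 2 probe sets (1 per gene) of the 22746 that were analysed. Both genes were singled out with their levels in all 4 genotypes already known, so every level of theirs, and every difference between genotypes, is given as a description without a test. Transcripts were measured on 12 Affymetrix ATH1 arrays of whole Arabidopsis thaliana seedlings, 4 days old, grown on Murashige Skoog agar at 21 °C with 16 h of light and 8 h of darkness. There were 4 genotypes with 3 biological replicates each: Col-0 (wild type), a sco3 mutant, a phyb mutant and sco3phyb, which carries both mutations. The product of PHYB is the photoreceptor phytochrome B, and SCO3 is needed for normal chloroplast development in cotyledons. The labels name no allele, no cold treatment and no pooling of plants. Each value is a log2 signal as deposited by the authors, so a difference of 1 is a 2-fold change.

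In Arabidopsis, low but non-freezing temperature induces the CBF transcription factors, which bind a short promoter element called CRT/DRE and raise a set of cold-regulated genes that includes COR15A and COR15B. Both genes encode small, very hydrophilic proteins of the late embryogenesis abundant (LEA) type, which are imported into the chloroplast stroma and help to protect membranes when freezing draws water out of the cell. The same genes respond to drought and to abscisic acid. Phytochrome B is known to hold the CBF pathway down in warm-grown Arabidopsis, which gives the comparison of phyb with Col-0 its interest for these genes.

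On the TAIR10.1 assembly COR15B (AT2G42530) lies at chr2:17708593-17710433 and COR15A (AT2G42540) at chr2:17710441-17712330, with 7 bases between the annotated genes. Probe set 263495_at measures COR15B and 263497_at measures COR15A. Hybridisation of either transcript to the other gene's probes was not tested. The lower end of COR15B overlaps the annotated gene AT2G42520 over 468 bases.

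Median log2 signals lay between 4.53 and 4.61 on the Col-0 and sco3 arrays and between 4.70 and 4.74 on the phyb and sco3phyb arrays. This offset goes with the PHYB genotype, so small differences across it can depend on whether arrays are centred. Col-0 replicate 3 stood somewhat apart, correlating at 0.978 on average with the rest of its genotype across probe sets, against 0.986 to 0.995 on the other arrays. The probe annotation names neither PHYB nor SCO3, so the targeted transcripts were not analysed here. Of the 14 fixed markers of cotyledon and leaf mesophyll 4 were measured, and their mean log2 level lay between 11.01 and 11.91 on every array. The annotation named none of the flower and pollen markers. In RNA from whole seedlings, fewer cells of a type and less RNA per cell cannot be told apart. Precision is limited by the 3 arrays of each genotype.

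COR15A was low in Col-0 and sco3, slightly higher in sco3phyb and highest in phyb. In Col-0 its log2 level was 3.02, 3.01 and 3.18 on replicates 1, 2 and 3, and in sco3 it was 3.13, 3.38 and 2.88. These values overlapped, and all of them lay between the 27.7th and the 36.8th percentile of their arrays. The arrays carry no detection call, so it is not known whether COR15A stood above background there, and each fold over Col-0 is a ratio of deposited signals. In phyb the log2 level of COR15A was 4.55, 7.79 and 7.79. All 3 phyb arrays were thus above all Col-0 arrays, but replicate 1 lay far below the other two. In sco3phyb the levels were 4.06, 4.26 and 3.95, close together and above every Col-0 and sco3 value.

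COR15B had the same low levels in Col-0 and sco3 and an intermediate level in sco3phyb. In Col-0 its log2 level was 3.11, 3.39 and 3.16, and in sco3 it was 3.31, 3.03 and 3.0, again with overlap. In phyb it was 4.57, 6.53 and 6.96, where replicate 1 was once more the low array. In sco3phyb it was 4.16, 5.83 and 5.22, which overlapped the phyb values, and replicate 1 was the lowest there too. On phyb replicates 2 and 3 COR15A reached the 88.4th and 88.5th percentiles of all probe sets and COR15B the 74.9th and 80.4th. On phyb replicate 1 both stood near the middle of the array, at the 47.9th and 48.1th percentiles.

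**Figure D1:**
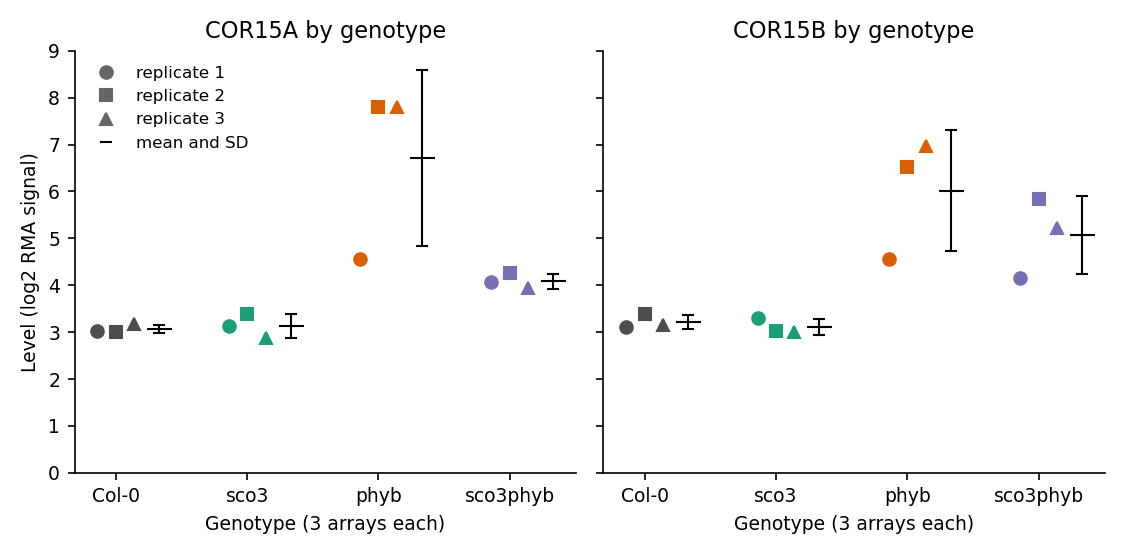
Log2 RMA signal (vertical axis) of COR15A and COR15B on each of the 12 arrays by genotype (horizontal axis), with symbols for the replicate number and black bars for the mean and SD of 3 arrays. Col-0 and sco3 lie between 2.88 and 3.39 for both genes, and phyb splits into replicate 1 at 4.55 and 4.57 and the other arrays at 6.53 to 7.79.

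The order of the genotype means was the same for both genes at the upper end, with sco3phyb below phyb. For COR15A the means were 3.07 ± 0.09 in Col-0, 3.13 ± 0.25 in sco3, 4.09 ± 0.16 in sco3phyb and 6.71 ± 1.87 in phyb (log2 level, SD, n = 3). Col-0 and sco3 overlapped in that order, while sco3 and sco3phyb, and sco3phyb and phyb, did not. The last gap was only 0.29 at its narrowest, between sco3phyb replicate 2 and phyb replicate 1. For COR15B the means were 3.11 ± 0.17 in sco3, 3.22 ± 0.15 in Col-0, 5.07 ± 0.84 in sco3phyb and 6.02 ± 1.28 in phyb (log2 level, SD, n = 3). Here sco3 and Col-0 overlapped, as did sco3phyb and phyb.

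Where PHYB was mutated and SCO3 intact, both genes were higher than in Col-0. The mean difference was 3.64 ± 0.62 for COR15A and 2.80 ± 0.51 for COR15B (log2, moderated standard error), or 12.5-fold and 6.96-fold higher. The values of both genes in phyb did not overlap those of Col-0 and were higher, as held for 21.4% of all probe sets. Ranked by the size of the rise in phyb, COR15A was number 25 and COR15B number 77 of 22746 probe sets. Replicate 1 decided much of these sizes: without it the differences were 4.72 and 3.53, or 26.4-fold and 11.5-fold. That array alone stood 2.80-fold above the Col-0 mean for COR15A and 2.55-fold for COR15B, whereas replicates 2 and 3 stood 26.4-fold and 26.4-fold above it for COR15A and 9.91-fold and 13.4-fold for COR15B. The standard errors pool the spread of 4 genotypes that differ greatly in it, and so are wider than Col-0 alone would give and narrower than phyb alone would give.

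The sco3 mutation alone left both genes near the Col-0 level. The difference between sco3 and Col-0 was 0.06 ± 0.62 for COR15A and -0.11 ± 0.51 for COR15B (log2, moderated standard error), and in neither gene were the arrays of the genotypes apart. At these low signals, which carry no detection call, a lowering by sco3 could have gone unseen. The same limit holds for the comparison of the sco3 effect between the phyb and PHYB backgrounds.

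In the double mutant COR15A stood less far above its Col-0 mean than COR15B on replicates 2 and 3. They were 2.28-fold and 6.08-fold above it on replicate 2, and 1.85-fold and 4.00-fold on replicate 3. On replicate 1 they were alike, at 1.99-fold and 1.92-fold. COR15A was 2.03-fold above Col-0 in sco3phyb (log2 difference 1.02 ± 0.62) and COR15B was 3.60-fold above it (1.85 ± 0.51). Neither gene overlapped Col-0, with both higher, as held for 21.8% of all probe sets. Against sco3 the double mutant was higher by 0.96 ± 0.62 for COR15A and 1.96 ± 0.51 for COR15B, again without overlap, as for 23.4% of probe sets. Set against the rise in phyb on the log2 scale, sco3phyb had 28.1% of it for COR15A and 66.0% for COR15B, or 21.6% and 52.5% without phyb replicate 1. These comparisons share arrays, so the percentages describe the 4 means and are no separate evidence.

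Compared directly with phyb, sco3phyb was lower by 2.62 ± 0.62 for COR15A and by 0.95 ± 0.51 for COR15B on the log2 scale, or 6.15-fold and 1.93-fold lower. The arrays of COR15A did not overlap and were lower in sco3phyb, as for 17.2% of probe sets, while those of COR15B overlapped. Without phyb replicate 1 the differences were -3.70 and -1.68, and for COR15B the smallest difference with an array left out was -0.48. The sco3 effect in the phyb background less that in the PHYB background was -2.68 ± 0.88 for COR15A and -0.84 ± 0.72 for COR15B. For COR15B that value ranged from -1.57 to -0.37 with each array left out in turn. The log2 signal of COR15A less that of COR15B, a measure within each array, averaged 0.69 ± 0.65 in phyb and -0.98 ± 0.77 in sco3phyb (SD, n = 3), against -0.15 ± 0.21 in Col-0. A zero of that measure has no meaning, because the 2 probe sets bind their targets differently, and only its change between genotypes does. Between phyb and sco3phyb its values fell from -0.02, 1.26 and 0.83 to -0.10, -1.57 and -1.27. On replicate 1 of both genotypes the measure stayed near its Col-0 level.

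**Figure D2:**
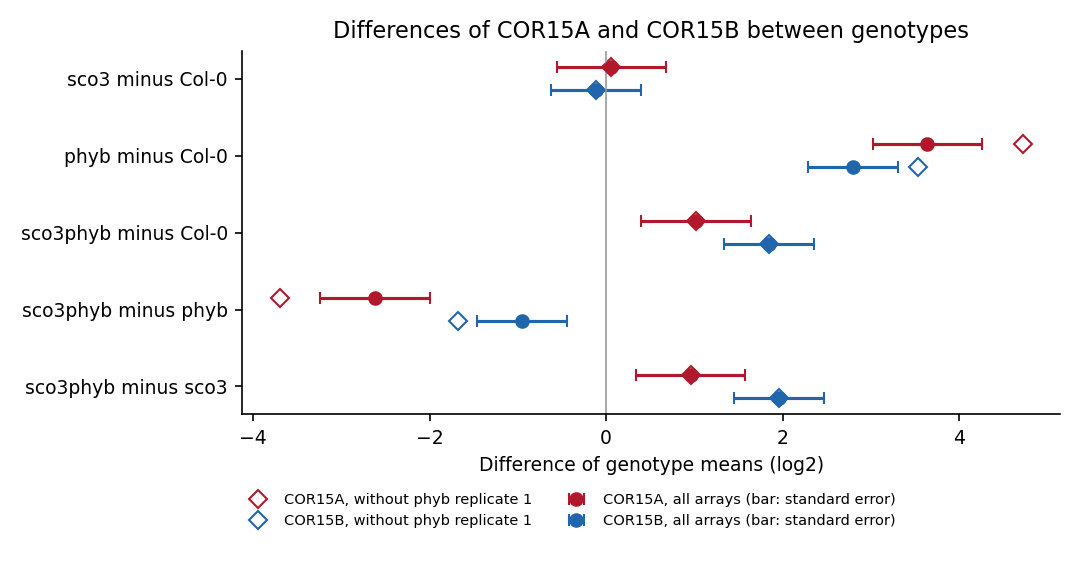
Differences between genotype means (horizontal axis, log2) of COR15A and COR15B for 5 pairwise comparisons, with filled circles and moderated standard errors for all arrays and open diamonds for the value without phyb replicate 1. Leaving that array out moves phyb minus Col-0 from 3.64 to 4.72 for COR15A and from 2.80 to 3.53 for COR15B.

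Of 2 measured root hair expansin genes 1 was called between phyb and sco3phyb, where 14.9% of all probe sets were called. EXPA7 fell by 1.22 ± 0.37 in sco3phyb against phyb (log2, limma adjusted p = 0.0427, and 0.0579 to 0.129 when any of 7 arrays was left out, which were every phyb and sco3phyb array and sco3 replicate 1, and 0.0606 to 0.0674 in 2 other settings), and EXPA18 differed by -0.96 ± 0.38 without a call. These were 2 of the 10 fixed root markers, and their mean log2 level was 6.85 to 7.27 in phyb, 5.77 to 6.16 in sco3phyb, 4.78 to 5.69 in sco3 and 5.92 to 7.58 in Col-0. In phyb against Col-0, where 33.4% of all probe sets were called, psbA and LHCB4.2 of the 4 measured mesophyll markers were lower. They fell by 1.53 and 0.62 on the log2 scale (limma adjusted p = 4.10e-04 and 4.86e-04). The others were not called there: rbcL differed by -0.60 ± 0.26, and RCA by 0.11 ± 0.09 in the opposite direction. The mean of the 4 was 11.01 to 11.30 in phyb against 11.57 to 11.91 in Col-0. The guard cell lineage had 3 of 7 markers measured, with a mean of 3.03 to 3.27 in phyb and 3.43 to 3.65 in Col-0. Only FMA was called there, with a difference of -0.89 ± 0.17 (limma adjusted p = 0.00162). SPCH differed by -0.23 ± 0.19 and MUTE by -0.16 ± 0.13 without a call. Of the 9 fixed markers of seed reserves 1 was measured, PAP85, a seed storage protein gene, at 2.27 to 3.73 in Col-0, 4.33 to 5.32 in sco3, 4.09 to 6.31 in phyb and 3.21 to 4.05 in sco3phyb. PAP85 rose by 2.35 ± 0.51 in phyb against Col-0 (log2, limma adjusted p = 0.00322). Between phyb and sco3phyb it fell by 1.70 ± 0.51 (adjusted p = 0.0404, and 0.0521 to 0.17 without any of 7 arrays, and 0.0683 in 1 other setting). The part of these markers in the levels of COR15A and COR15B was not tested.

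The spread of both genes among the phyb arrays was itself unusual. The SD of 1.87 for COR15A in phyb was number 7 of 22746 probe sets, and that of 1.28 for COR15B was number 22, where the median SD was 0.118. On phyb replicate 1 the log2 difference from the mean of the other phyb arrays was -3.24 for COR15A and -2.18 for COR15B, and 26 probe sets in all (0.114%) lay more than 2 below. Across all probe sets phyb replicate 1 stood only slightly apart: its mean correlation with its own genotype was 0.992, against 0.994 for each of the other phyb arrays. Its mean absolute deviation from the phyb mean was 0.121, against 0.101 for each of the others. In sco3phyb the gap of replicate 1 was -1.36 for COR15B, the lowest of all probe sets, and -0.05 for COR15A. The labels do not say whether same-numbered replicates of different genotypes were grown or harvested together. A common origin of these low values was not tested.

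Other cold-regulated genes were read from fixed lists of the cold pathway. Most of their members are unnamed in the probe annotation, so 3 of 52 symbols written for the cold regulon could be followed, beside COR15A and COR15B. COR27 (AT5G42900), a cold and clock regulated gene, was 2.56, 2.47 and 2.56 in Col-0, 3.65, 4.25 and 4.68 in phyb and 4.12, 4.44 and 4.67 in sco3phyb (log2 level). All phyb and sco3phyb arrays were above all Col-0 arrays, as held for 21.4% of all probe sets in phyb and 21.8% in sco3phyb. In sco3 COR27 read 2.90, 3.32 and 3.63, also above all Col-0 arrays. There it differed from Col-0 by 0.75 ± 0.24 without a call (limma adjusted p = 0.0901). COR27 rose by 1.67 ± 0.24 in phyb and by 1.88 ± 0.24 in sco3phyb against Col-0 (limma adjusted p = 1.82e-04 and 8.86e-05, Benjamini-Hochberg over all probe sets), and between sco3phyb and phyb it differed by 0.22 ± 0.24 without a call. COR47 (AT1G20440), a dehydrin, rose in sco3phyb against sco3 by 0.88 ± 0.23 (adjusted p = 0.0126, and 0.0585 without sco3phyb replicate 2) and differed by 0.52 ± 0.23 in phyb against Col-0 without a call. LTI30 (AT3G50970), a cold-induced dehydrin, differed by -0.09 ± 0.45 in phyb against Col-0 without a call. Its phyb replicates read 7.67, 9.85 and 9.65, so LTI30 too was lowest on replicate 1, which there lay below every Col-0 array. In phyb 1 of the 3 cold regulon genes was called against Col-0, as a rise, where 33.4% of all probe sets were called in either direction (2 of the 3 rose without Col-0 replicate 3), and the median difference of the 3 was 0.52 against -0.06 over all probe sets.

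LEA proteins and dehydrins form the family to which the COR15 proteins belong, and they accumulate in drying seeds and stressed tissue. Of the 11 measured genes of that list, COR47 and LTI30 among them, 6 (54.5%) were called in phyb against Col-0, where 33.4% of all probe sets were called, and all 6 rose. The median difference of the 11 was 0.73, against -0.06 over all probe sets. Those 6 were M17, LEA4-5, AtLEA4-1, LEA, AT1G54410 and AT2G44060, of which the last 2 are named after their values were seen. The number of rises was 3 without Col-0 replicate 1, 3 without Col-0 replicate 2, 2 without phyb replicate 2 and 2 without phyb replicate 3, but 9 without Col-0 replicate 3. It was 2 when Col-0 and phyb were fitted alone, and 4 with a mean and variance trend.

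In sco3phyb against Col-0, 1 of the 11 LEA genes was called, AT1G54410, which rose, and the median difference was 0.14 against -0.02 over all probe sets, of which 29.7% were called. Without Col-0 replicate 3, 4 of the 11 rose. AT1G54410, annotated as a dehydrin, rose by 0.73 ± 0.18 in phyb and by 0.69 ± 0.18 in sco3phyb on the log2 scale (limma adjusted p = 0.00742 and 0.0113, the latter 0.0523 when sco3phyb and Col-0 were fitted alone, where 0 of the 11 were called). Against phyb, 2 of the 11 fell in sco3phyb, M17 and AT2G44060, and 0 rose, with a median of -0.54 against 0.04, where 14.9% of all probe sets were called. There were 5 falls without Col-0 replicate 3 and 5 without phyb replicate 1. AT2G44060, annotated as a LEA protein, fell by 0.59 ± 0.10 between phyb and sco3phyb (limma adjusted p = 0.00181). In phyb against Col-0 it differed by 0.31 ± 0.10 (adjusted p = 0.0315, but 0.0615 to 0.106 without any of 4 arrays and 0.203 with arrays centred). In sco3 against Col-0 limma called 0 of the 11, where 4.97% of all probe sets were called, and 3 of the 11 had an unadjusted p under 0.05.

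M17 (AT2G41260), a LEA gene, came closest to COR15A within that list. It read 2.49, 2.44 and 2.49 in Col-0, 3.05, 2.91 and 2.04 in sco3, 4.09, 6.05 and 5.75 in phyb and 3.62, 2.51 and 2.93 in sco3phyb (log2 level). Only its phyb arrays stood clear of the other genotypes, and replicate 1 was the lowest of them. M17 rose by 2.83 ± 0.44 in phyb against Col-0 and fell by 2.27 ± 0.44 in sco3phyb against phyb on the log2 scale (limma adjusted p = 2.94e-04 and 0.00361). Its sco3 effect differed between the phyb and PHYB backgrounds by -2.47 ± 0.62 (interaction, limma adjusted p = 0.0376, and 0.0577 to 0.103 without any of 8 arrays, and 0.0568 to 0.064 in 2 other settings). M17 was the 1 LEA gene of 11 called in the interaction, where 5.03% of all probe sets were called.

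LEA4-5 (AT5G06760) read 5.55, 8.22 and 8.27 in phyb and 4.39, 4.90 and 6.62 in Col-0, so the genotypes overlapped through phyb replicate 1 and Col-0 replicate 3. It rose by 2.05 ± 0.68 in phyb (limma adjusted p = 0.0350, and 0.0982 to 0.141 on leaving out replicate 1 or 2 of Col-0 or replicate 2 or 3 of phyb, and 0.0687 to 0.113 in 2 other settings). AtLEA4-1 (AT1G32560) rose by 1.66 ± 0.52 (adjusted p = 0.0271, and 0.0704 to 0.113 without any of the same 4 arrays, and 0.0536 to 0.0985 in 2 other settings). The dehydrin gene LEA (AT2G21490) rose by 1.29 ± 0.41 (adjusted p = 0.0297, and 0.0513 to 0.116 without Col-0 replicate 1, phyb replicate 2 or phyb replicate 3, and 0.0536 to 0.0904 in 2 other settings).

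Within phyb, the low replicate 1 was seen in several LEA genes and not in all. Of the 11 genes 4 lay more than 1 log2 unit below the mean of the other phyb arrays on replicate 1 (36.4%, against 0.831% of all probe sets), with gaps of -2.70 for LEA4-5, -2.08 for LTI30, -1.81 for M17 and -1.37 for LEA. The median gap of the list was -0.62, and its smallest was -0.04. Col-0 replicate 3 was high for some LEA genes. LEA18 (AT2G35300) read 8.28 there against 4.76 and 5.37 on the other Col-0 arrays, and AtLEA4-1 read 7.99 against 5.29 and 5.73, whereas M17 read 2.49 there against 2.49 and 2.44. COR15A and COR15B read 3.18 and 3.16 there, within or near the range of the other Col-0 arrays.

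**Figure D3:**
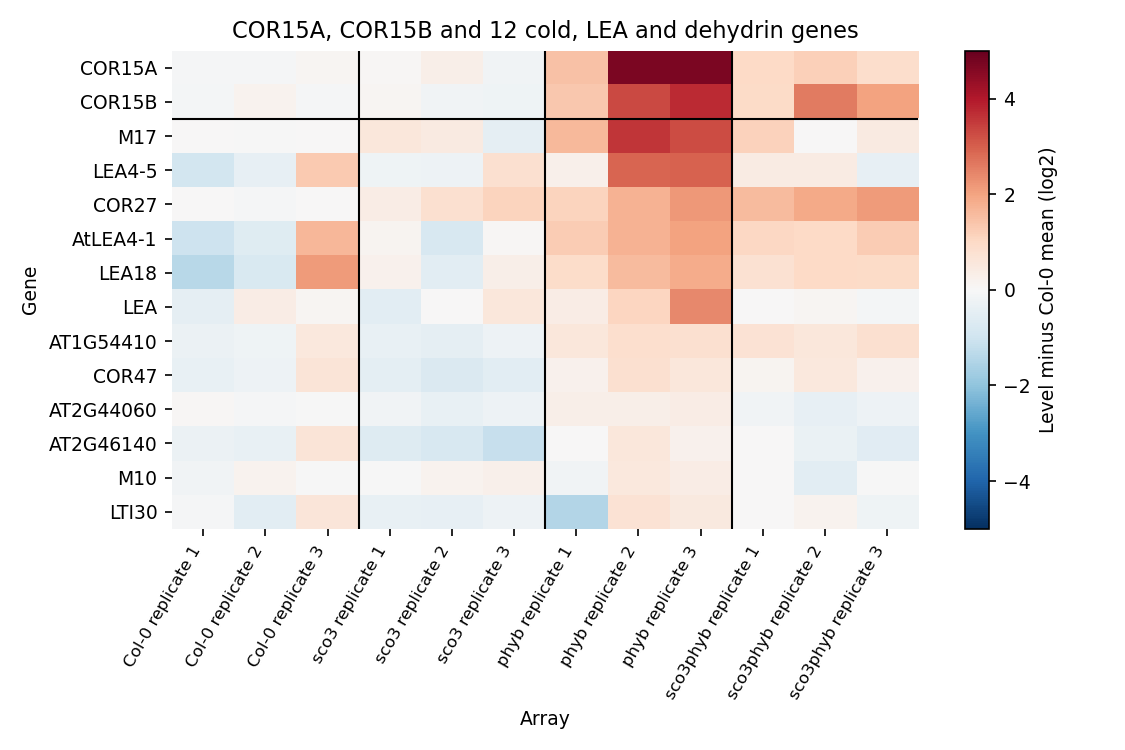
Log2 level minus the Col-0 mean (colour) of COR15A, COR15B and 12 cold-regulated, LEA and dehydrin genes (vertical axis) on each array (horizontal axis), with lines between genotypes. COR15A, COR15B, M17 and LEA4-5 are strongest on phyb replicates 2 and 3, LTI30 is lowest on phyb replicate 1, and Col-0 replicate 3 is raised for LEA18 and AtLEA4-1 but not for COR15A or COR15B.

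Upstream regulators of the cold pathway were followed through 5 genes and 6 probe sets. None of the CBF genes is named by the annotation, and they were not analysed here. In phyb against Col-0, 2 of the 6 probe sets (33.3%) were called, 1 in each direction, where 33.4% of all probe sets were called. PUB26 (AT1G49780), a ubiquitin ligase that acts on a repressor of CBF genes, rose by 0.50 ± 0.15 (limma adjusted p = 0.0236, and 0.0610 to 0.0933 without Col-0 replicate 1, phyb replicate 1 or phyb replicate 2, and 0.0798 with arrays centred). EIN3 (AT3G20770), an ethylene regulator that represses CBF genes, dropped by 0.43 ± 0.12 as a log2 difference (limma adjusted p = 0.0127). In sco3phyb against sco3, 3 of the 6 were called, all as rises, where 29.3% of all probe sets were called. PUB25 (AT3G19380), which acts with PUB26, rose by 0.95 ± 0.15 (adjusted p = 5.38e-04), and STZ (AT1G27730), a zinc finger repressor induced by cold and drought, rose by 1.13 ± 0.34 (adjusted p = 0.0227, and 0.0502 to 0.0942 without sco3 replicate 1, sco3phyb replicate 1 or sco3phyb replicate 3). PUB26 rose there by 0.53 ± 0.15 (adjusted p = 0.0196, and 0.0516 to 0.0853 without sco3 replicate 2, sco3phyb replicate 2 or sco3phyb replicate 3, and 0.0786 with arrays centred).

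Genes of a list for drought and sugar stress were followed through 4 measured members. COR47 is among them and is also in the cold regulon and LEA lists. In phyb against Col-0 2 of the 4 rose and 0 fell, where 33.4% of all probe sets were called, and without Col-0 replicate 3 the counts were 3 and 1. Between sco3phyb and phyb limma called 0 of the 4, where 14.9% of all probe sets were called, with 1 at an unadjusted p under 0.05 and differences from -0.22 to 0.33. RD2 (AT2G21620), a gene named for its response to desiccation, rose by 0.89 ± 0.14 in phyb and by 0.68 ± 0.14 in sco3phyb against Col-0 (adjusted p = 2.81e-04 and 0.00219). TIL (AT5G58070), the temperature-induced lipocalin, rose by 0.56 ± 0.12 and 0.89 ± 0.12 (adjusted p = 0.00297 and 1.40e-04). HVA22C (AT1G69700), of a family named for a barley gene induced by abscisic acid, decreased by 0.83 ± 0.16 (log2) in sco3phyb against sco3 (adjusted p = 0.00200). GI (AT1G22770), a clock gene, rose by 1.05 ± 0.29 in phyb (adjusted p = 0.0143, and 0.0508 to 0.0575 without Col-0 replicate 1, phyb replicate 2 or phyb replicate 3). In sco3phyb against Col-0 GI rose by 1.45 ± 0.29 (adjusted p = 0.00227). Of the 2 measured light and clock genes 1 was called in phyb against Col-0, where 33.4% of all probe sets were called. Both were called in sco3phyb against Col-0, where 29.7% of all probe sets were called. The other gene, HYH (AT3G17609), rose there by 0.70 ± 0.23 (limma adjusted p = 0.0397, and 0.0514 to 0.165 without any of 8 arrays, and 0.0545 to 0.106 in 4 other settings). The annotation named no member of the lists of abscisic acid response and of plastid stress proteins.

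The genes most like each member were found as those with the smallest root-mean-square difference from it over the 12 arrays, after each profile was centred on its own mean, among 13512 other named probe sets. Closest to COR15A were AT1G16850 at 0.44 log2 units, AT5G04120 at 0.47, M17 at 0.60, AT5G37990 at 0.65 and COR15B at 0.74, where the median over all was 1.71. All of these were lowest on replicate 1 within phyb, AT1G16850 with 4.27, 6.63 and 6.72 and AT5G04120 with 4.90, 7.44 and 6.49. The genes closest to COR15B were others: AT1G07050 and AT5G61660 at 0.56, AT3G62960 at 0.57, AT5G07030 at 0.59 and AT5G17160 at 0.60, with a median of 1.44, and COR15A came at rank 36. Their phyb arrays lay closer together, from 4.33 to 4.96 for AT1G07050 and from 7.02 to 7.68 for AT5G61660, and their means were 4.65 and 7.36 in phyb and 4.52 and 6.81 in sco3phyb. AT3G62960 was lower in sco3phyb, with a mean of 6.09 in phyb and 4.72 in sco3phyb. AT1G07050 was lowest on replicate 1 in sco3phyb, at 3.69 against 4.98 and 4.90. These likenesses describe the same arrays that the members were chosen on and were not tested.

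Genes beside the pair on the chromosome had smaller differences. Of the 10 nearest measured and named genes, 5 on each side, 3 were called in phyb against Col-0, where 33.4% of all probe sets were called. AT2G42520 and AT2G42690 rose and TBL39 fell, of which the last 2 are named after their values were seen, and the differences of the 10 ran from -1.01 to 0.73 with a median of 0.18. Between sco3phyb and phyb 0 of the 10 were called by limma, where 14.9% of all probe sets were called, and 1 had an unadjusted p under 0.05, with differences from -0.30 to 0.29. AT2G42520, which overlaps COR15B, read 5.73, 5.76 and 6.04 in Col-0 and 6.20, 6.50 and 6.40 in phyb. It rose by 0.52 ± 0.15 in phyb (limma adjusted p = 0.0142, and 0.0504 and 0.0611 without Col-0 replicate 1 and phyb replicate 2). AT2G42690 rose by 0.73 ± 0.22 in phyb (limma adjusted p = 0.02, but 0.0597 without phyb replicate 1, 0.05 without phyb replicate 2 and 0.0507 with arrays centred). On the other side AT2G42560, which starts 2307 bases beyond COR15A, differed by 0.33 ± 0.22 in phyb and by 0.03 ± 0.22 in sco3phyb without a call. On phyb replicate 1 the 10 neighbours had a median gap near 0 and a lowest gap of -0.65 from the other phyb arrays.

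**Figure D4:**
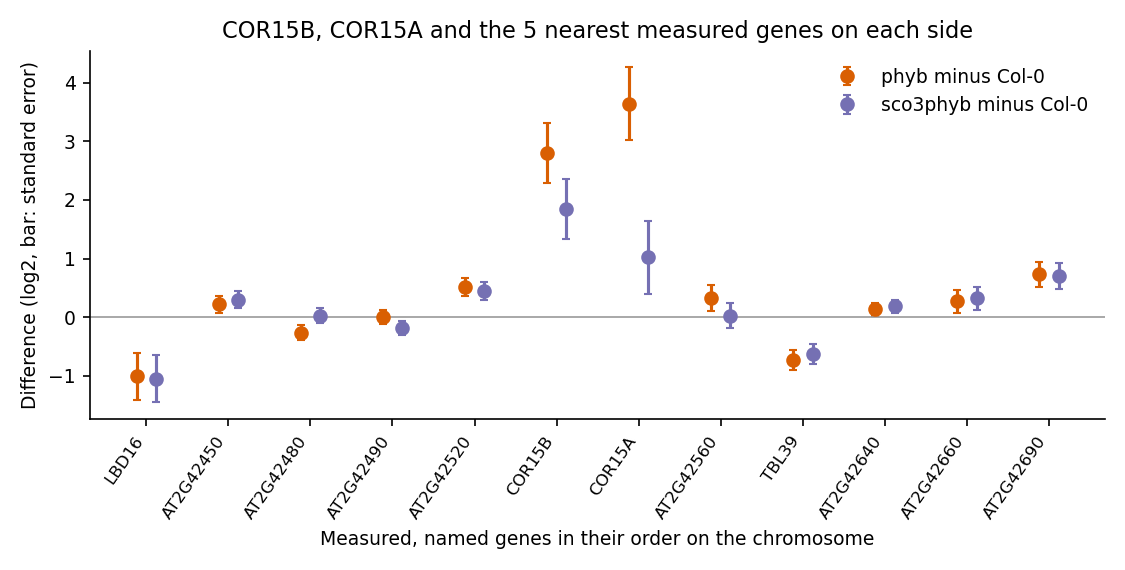
Differences of phyb and sco3phyb from Col-0 (vertical axis, log2, with moderated standard errors) for COR15B, COR15A and the 5 nearest measured and named genes on each side, in chromosome order (horizontal axis, not to scale). COR15B and COR15A stand at 2.80 and 3.64 in phyb, and the neighbours lie between -1.01 and 0.73.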

How the data were processed

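The authors deposited log2 RMA expression values per probe set, normalized across the 12 arrays, with RMA and Partek named per the submitters' processing notes. For both, no version or setting is given in the sources used here. The log2 values, from 1.44 to 13.5, were used as deposited. After 64 control probe sets were left out, 22746 were tested. The annotation gave 1 gene symbol to 13513, several to 503 and none to 8730, and 13436 of the first were placed on TAIR10.1. Limma 3.58.1 in R 4.3.3 fitted a mean per genotype to all 12 arrays, leaving 8 residual degrees of freedom, for 5 pairwise contrasts and the interaction. P-values are two-sided, adjusted by Benjamini-Hochberg within a contrast, and called under 0.05. They weigh a difference of genotype means against the spread between labelled biological replicates, pooled over the 4 genotypes and moderated across probe sets. Genotypes share replicate numbers in the labels, but same-numbered arrays did not deviate together across all probe sets (correlations from -0.274 to 0.15). The numbers were therefore not used as pairs. These correlations cannot show a link confined to a few genes.

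COR15A, COR15B and the gene lists were chosen with earlier results of these data known. The lists held 330 symbols, of which 24 genes on 25 probe sets were measured. The symbol CCR2 was left out, since the annotated CCR2 is another gene. Named were up to 4 called members per list by size of difference, the 5 genes most like each member and the nearest gene on each side. Alternatives were array weights, centring, a further quantile normalization, robust fitting with a trend of variance on mean, the replicate number as a block, a fit of 2 genotypes alone, leaving out each array and leaving out the dimmest 40% of probe sets, which kept both COR15 genes. No sequence is shown, since no sequence table was used.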

Additional observations from a re-analysis of the deposited data

Results flagged for a closer look

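Tested by the interaction in limma, the sco3 effect in the phyb background differed from that in the PHYB background for 2 of the 25 list probe sets (8.00%, where 5.03% of all probe sets were called) and for 0 of the 10 neighbours. For PAP85, a seed storage protein gene, the difference was -3.36 on the log2 scale, from 1.66 in sco3 against Col-0 and -1.70 in sco3phyb against phyb (adjusted p = 0.0181, between 0.00142 and 0.0527 over 18 alternatives and 0.0527 without sco3phyb replicate 2). Its levels were 2.27, 3.73 and 3.17 in Col-0, 4.52, 4.33 and 5.32 in sco3, 4.09, 5.82 and 6.31 in phyb and 4.05, 3.21 and 3.87 in sco3phyb. For M17 it was -2.47, from 0.19 and -2.27 (adjusted p = 0.0376, between 0.00174 and 0.103 over 17 alternatives, with the call kept in only 7 of them). Leaving out any of 8 arrays ended the M17 call: Col-0 replicates 1 and 2, phyb replicates 2 and 3, sco3 replicates 1 and 2 and sco3phyb replicates 2 and 3, with adjusted p from 0.0577 to 0.103.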

How the results depend on the processing

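The phyb minus Col-0 differences of COR15A and COR15B were 4.07 and 3.03 with array weights, 3.50 and 2.65 with arrays centred, 3.62 and 2.74 after renewed quantile normalization and 3.64 and 2.80 with the replicate block. With each array left out in turn, COR15A ranged from -0.06 to 0.19 in sco3 against Col-0, 3.10 to 4.72 in phyb against Col-0, 0.94 to 1.09 in sco3phyb against Col-0, -3.70 to -2.08 in sco3phyb against phyb, 0.84 to 1.08 in sco3phyb against sco3 and -3.76 to -2.14 in the interaction. COR15B ranged from -0.21 to -0.02, 2.33 to 3.53, 1.47 to 2.3, -1.68 to -0.48, 1.58 to 2.41 and -1.57 to -0.37 in the same order. Of the 25 list probe sets, 1, 13, 9, 4, 11 and 2 were called in these 6 comparisons, where 4.97%, 33.4%, 29.7%, 14.9%, 29.3% and 5.03% of all probe sets were called, and with an array left out 0 to 3, 7 to 18, 7 to 11, 2 to 7, 8 to 14 and 0 to 4. The replicate block gave 2 calls in sco3 against Col-0 and 1 in the interaction, and the fit of the 2 genotypes alone gave 0 in sco3 against Col-0. Array weights gave 10 in sco3phyb against phyb and 4 in the interaction. Without the dimmest 40% of probe sets, which left 18 of the 25, 2 were called in sco3phyb against phyb and 1 in the interaction, and the mean and variance trend gave 1 in the interaction. The split in sco3phyb against Col-0 was 8 higher and 1 lower as deposited, 6 and 3 with arrays centred and 6 and 2 after quantile normalization. The cause of these changes was not tested, except that fewer probe sets or arrays entered some fits. The 5 genes most like each member were the same 5 with arrays centred. Low signals carry no detection call, which limits every fold over Col-0.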

Other observations

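Named genes that were furthest below the other phyb arrays on phyb replicate 1, chosen after their values were seen, included SAG29 (AT5G13170), a sugar transporter gene of senescing tissue, with 3.65, 6.96 and 6.96 on the phyb replicates and 3.51 to 3.94 in Col-0. AT2G37870 read 5.19, 8.42 and 8.30 in phyb and 6.70 to 7.11 in Col-0, so replicate 1 was below every Col-0 array there. AT3G02480 read 8.18, 10.99 and 10.82 in phyb, and 7.86, 8.37 and 10.96 in Col-0, where replicate 3 was as high as the upper phyb arrays. COR15A had the second lowest such gap among named genes, after SAG29. The seed oil body gene OLEO3 fell by 0.70 on the log2 scale in sco3phyb against phyb (limma adjusted p = 0.0160, and 0.0528 to 0.0761 without any of 4 arrays). HYH, a light-signalling transcription factor, rose by 1.12 in sco3 against Col-0 (limma adjusted p = 0.0205, and 0.0534 to 0.0696 on leaving out any 1 sco3 array, and 0.0847 in 1 other setting).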
